A study of Mus musculus with 24 samples.

Results

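The collagen genes of the mouse were followed in bulk RNA-seq of the renal cortex. Members were taken by name alone, as every gene of the count table whose symbol is Col, a number, a and a number, and no measured value entered that choice. The rule found 44 genes among 48526, made up of 11 fibrillar collagen genes, 6 type IV genes, 6 type VI genes and 21 others. The others are the collagens that associate with fibrils, the multiplexins, the transmembrane collagens, the short-chain network collagens, anchoring fibril collagen, and Col26a1 and Col28a1. There were 24 libraries in 4 groups of 6. Diabetic PMX-53 mice were C57BL/6 mice given streptozotocin at 55 mg/kg on each of 5 days when 6 weeks old, and then PMX-53 at 2 mg/kg in their water. PMX-53 is a cyclic peptide that inhibits C5aR1, the receptor for the complement fragment C5a. Diabetic vehicle mice received the same streptozotocin and plain drinking water. Non-diabetic PMX-53 mice received 0.5 M sodium citrate in place of streptozotocin and the same peptide, and non-diabetic vehicle mice received sodium citrate and plain drinking water. All groups were followed for 24 weeks. Streptozotocin kills insulin-producing beta cells, so it models insulin-deficient diabetes, and it can also be toxic to other tissues. The labels name separate samples of each group without saying more on the animals behind them, so the p-values measure the spread between these samples only.

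Collagens are secreted proteins whose chains wind into a triple helix. Fibrillar collagens, with type I and type III as the bulk, form the banded fibrils of the interstitium, and their build-up is the classic measure of renal fibrosis. Type IV collagen forms the sheet of every basement membrane. In the kidney the α1 and α2 chains make one network, found in the mesangial matrix and in tubular and vascular basement membranes, and the α3, α4 and α5 chains, made by podocytes in the glomerulus, make another that is lost or defective in Alport syndrome. Type VI collagen forms beaded microfilaments around cells and next to basement membranes.

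Several collagen genes lie side by side. In GRCm38, Col4a4 (chr1:82448423-82586849, minus strand) and Col4a3 (chr1:82586921-82722059, plus strand) are transcribed away from each other with 71 bases between their starts. Col4a1 (minus strand) and Col4a2 (plus strand) on chromosome 8 start so close that 22 exonic bases overlap, and Col4a6 and Col4a5 on chromosome X start 1308 bases apart. Col6a6, Col6a5 and Col6a4 form a cluster on the minus strand of chromosome 9, and Col3a1 and Col5a2 lie 24614 bases apart on chromosome 1. To show what stands before genes whose changes are described here, RefSeq promoter sequence of GRCm38.p6 is given for the shared Col4a4 and Col4a3 interval, for 3 genes that were lower in diabetic vehicle libraries (Col3a1, Col5a1 and Col6a3) and for 2 that were higher (Col7a1 and Col13a1). Each of these 5 is the 150 bases before the start, on the gene's own strand, and the interval is on the plus strand. The positions are chr1:82586850-82586920 for the interval, chr1:45311388-45311537 for Col3a1 (plus), chr2:27886275-27886424 for Col5a1 (plus), chr1:90843972-90844121 for Col6a3 (minus), chr9:108953436-108953585 for Col7a1 (plus) and chr10:61979109-61979258 for Col13a1 (minus). Capitals mark a match, on either strand, to the TATA motif TATAAA, to the GC box motif GGGCGG or to the CCAAT box motif.
Col4a4 to Col4a3 interval: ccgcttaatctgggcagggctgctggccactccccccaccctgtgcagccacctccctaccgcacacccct
Col3a1: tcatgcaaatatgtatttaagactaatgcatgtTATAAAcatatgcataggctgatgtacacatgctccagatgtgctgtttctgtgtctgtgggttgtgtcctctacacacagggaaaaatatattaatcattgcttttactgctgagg
Col5a1: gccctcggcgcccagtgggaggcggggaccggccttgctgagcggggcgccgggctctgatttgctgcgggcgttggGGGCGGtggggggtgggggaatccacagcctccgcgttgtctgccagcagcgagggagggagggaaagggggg
Col6a3: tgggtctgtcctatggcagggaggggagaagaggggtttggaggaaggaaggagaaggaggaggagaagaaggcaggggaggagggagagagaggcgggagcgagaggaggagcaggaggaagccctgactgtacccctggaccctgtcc
Col7a1: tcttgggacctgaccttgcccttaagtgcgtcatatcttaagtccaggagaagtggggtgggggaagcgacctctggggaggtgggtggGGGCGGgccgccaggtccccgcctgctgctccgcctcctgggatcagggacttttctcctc
Col13a1: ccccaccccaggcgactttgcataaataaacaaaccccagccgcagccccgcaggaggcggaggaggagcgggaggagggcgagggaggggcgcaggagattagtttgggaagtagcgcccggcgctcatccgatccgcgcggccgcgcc
GGGCGG stands in the windows of Col5a1 and Col7a1 and TATAAA in that of Col3a1. Over all 32851 RefSeq promoters, windows of the same length hold GGGCGG in 28.6%, CCAAT in 24.5% and TATAAA in 7.57%. RefSeq promoters were at hand for 35 of the collagen genes, in 38 windows, of which 19 hold GGGCGG, 8 hold CCAAT and 4 hold TATAAA. These matches are letters in a window and say nothing of binding.

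The libraries held 10964992 to 22000895 counts. Counts of mitochondrially encoded genes made up 22.2% to 29.0% of the total in diabetic PMX-53 libraries, 25.9% to 31.9% in diabetic vehicle, 20.2% to 24.6% in non-diabetic PMX-53 and 20.1% to 24.6% in non-diabetic vehicle libraries. Ribosomal RNA genes made up 22.3% to 27.7% in diabetic PMX-53 and 25.0% to 30.4% in diabetic vehicle libraries. Their share was 20.5% to 24.4% in non-diabetic PMX-53 and 19.8% to 24.3% in non-diabetic vehicle libraries. Both sets include the mitochondrial ribosomal RNA genes. Markers of the proximal tubule, the main cell of the cortex, summed to between 11756.8 and 20095.4 CPM (a gene's reads scaled to the TMM-adjusted library size) in every library, and all 9 podocyte markers were measured. The diabetic vehicle libraries stood apart from all 18 others at genes that are no collagens. Nnt, a mitochondrial transhydrogenase gene that is partly deleted in the C57BL/6J substrain, had 109 to 121 CPM in diabetic PMX-53, 242 to 272 CPM in diabetic vehicle, 101 to 110 CPM in non-diabetic PMX-53 and 101 to 112 CPM in non-diabetic vehicle libraries. Ide, which encodes insulin-degrading enzyme, had 62.2 to 76.5 CPM in diabetic vehicle libraries and at least 111 CPM in all others. Whatever sets the diabetic vehicle libraries apart at these genes cannot be told apart from diabetes, or from PMX-53 in diabetic mice, in any comparison that uses them. The comparison of diabetic with non-diabetic mice on PMX-53 does not use them and is given for each collagen gene called and each list of other genes.

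Of the 44 collagen genes, 33 passed the filter on low counts. The 11 that did not were Col10a1, Col9a2 and Col9a1 with 2, 4 and 8 counts over all 24 libraries, Col2a1, Col11a1, Col22a1, Col28a1 and Col17a1 with 17, 18, 19, 35 and 48, and Col25a1, Col8a2 and Col9a3 with 80, 103 and 112. Several of them are collagens of cartilage. A gene that is high in one group alone can pass the filter through that group, so counts over the 33 describe the genes that passed and not the whole family.

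Basement membrane collagens were the most abundant. Per kb of the principal transcript in non-diabetic vehicle libraries, Col4a1 averaged 35.6 ± 4.77 RPKM (SD, n = 6), Col4a3 32.6 ± 2.80, Col4a4 30.1 ± 2.22 and Col4a2 25.4 ± 2.83 RPKM. The ranges of neighbours in that order overlapped. Col18a1, which encodes the basement membrane multiplexin whose end is cleaved to endostatin, followed with 23.8 ± 3.92 RPKM. Col27a1, a fibrillar collagen best known from cartilage, had 18.5 ± 2.44 RPKM, above the fibril-associated Col14a1 with 11.1 ± 1.22 RPKM and Col1a2 with 8.50 ± 1.20 RPKM. Col4a5 (5.91), Col15a1 (5.72), Col3a1 (4.82), Col6a3 (4.15) and Col1a1 (4.04 RPKM) came next, again with overlapping neighbours. The lowest of the 33 were Col24a1 and Col6a4 with 0.108 RPKM each and Col6a5 with 0.0370 RPKM. By all annotated exons in place of the principal transcript, Col1a2 fell behind Col4a5, with 3.66 RPKM. The 6 type IV genes together held 63.0% to 68.1% of all collagen CPM in diabetic PMX-53 libraries, 61.3% to 69.5% in diabetic vehicle, 62.9% to 67.8% in non-diabetic PMX-53 and 61.5% to 66.7% in non-diabetic vehicle libraries, so the groups overlapped.

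**Figure D1:**
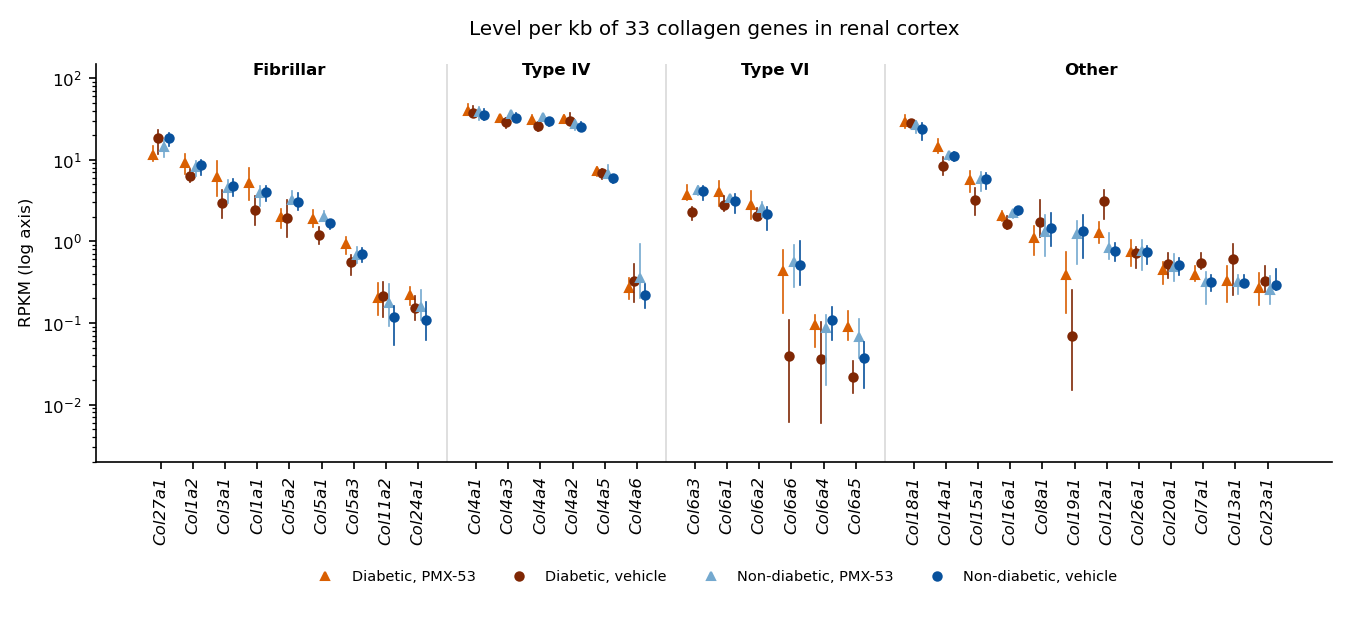
Mean RPKM (log axis) of the 33 collagen genes that passed the filter, by class and by level in non-diabetic vehicle libraries; symbols are group means and lines run from the lowest to the highest of 6 libraries. Col4a1 to Col4a4 lie at 25.4 to 40.0 RPKM in all groups, while Col6a6 and Col19a1 are lowest in diabetic vehicle libraries.

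In diabetic against non-diabetic mice on vehicle, more collagen genes were lower than higher: the interstitial fibril genes Col1a1, Col1a2, Col3a1, Col5a1 and Col5a2, the type VI genes Col6a3, Col6a4 and Col6a6, the fibril-associated genes Col14a1, Col16a1 and Col19a1, and Col15a1 and Col4a4 were lower, and Col12a1, Col7a1, Col13a1, Col11a2 and Col4a2 were higher. By edgeR's quasi-likelihood test at a Benjamini-Hochberg adjusted p below 0.05 over 15808 genes, 13 of 33 fell and 5 rose. Of all genes tested, 40.3% passed in this comparison, 19.9% lower and 20.4% higher. The median log2 fold change was -0.14 over the 33 collagen genes and 0.00 over all genes tested. In diabetic mice, PMX-53 against vehicle gave 16 collagen genes that rose and 4 that fell, where 27.3% of all genes passed, 13.9% higher and 13.5% lower. The medians there were 0.28 over the collagen genes and 0.00 over all genes. Both comparisons contain the same 6 diabetic vehicle libraries, on opposite sides, so a gene that is low in those libraries is lower in one and higher in the other by construction. With library totals alone as scaling, the median of all genes shifted by -0.09 and 0.12 in these comparisons, and the share of called genes that were higher was 31.2% for diabetes on vehicle, against 50.7% with TMM scaling, and 79.5% for PMX-53 in diabetic mice, also against 50.7%.

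**Figure D2:**
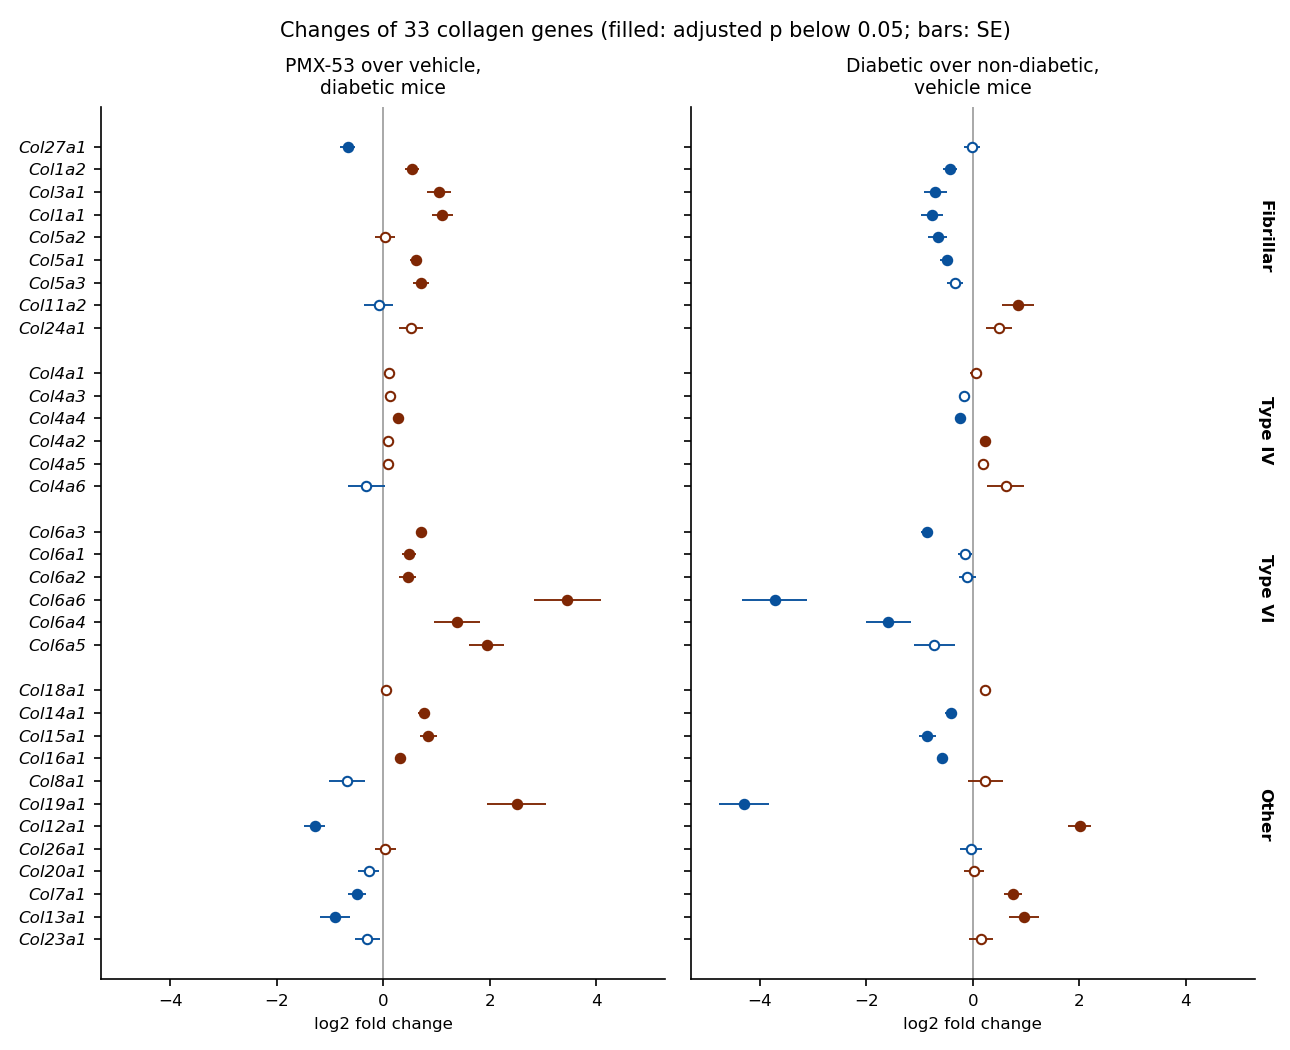
Log2 fold change of each collagen gene with its SE, for PMX-53 over vehicle in diabetic mice (left) and diabetic over non-diabetic mice on vehicle (right); filled symbols passed at an adjusted p below 0.05 over 15808 genes. The panels share the 6 diabetic vehicle libraries; 16 genes were higher and 4 lower on the left, and 5 higher and 13 lower on the right.

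Fewer collagen genes were called in the comparisons without diabetic vehicle libraries. Between the PMX-53 groups, diabetic against non-diabetic, 2 collagen genes passed and both were lower, Col19a1 and Col5a2, where 10% of all genes passed, 4.52% lower and 5.52% higher. That count depended on the processing, with 8 by limma voom, 4 in a fit of the compared groups alone, 4 without non-diabetic PMX-53 replicate 6 and 1 with library totals as the only scaling. In non-diabetic mice, no collagen gene passed by edgeR for PMX-53 against vehicle, and 0% of all genes passed. At an unadjusted p below 0.05 there were 4 collagen genes and 1142 genes in all, and DESeq2 called 5 genes. A test of the interaction, that is whether the response to PMX-53 differed between diabetic and non-diabetic mice, passed for 11 collagen genes, 10 with a more positive response in diabetic mice (Col1a1, Col1a2, Col3a1, Col5a3, Col6a3, Col6a6, Col14a1, Col15a1, Col16a1 and Col19a1) and 1 with a more negative one (Col12a1), where 9.42% of all genes passed, 4.66% more positive and 4.76% more negative. The interaction rests on the diabetic vehicle libraries as well.

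Among the fibrillar genes, 9 of 11 were tested. On vehicle, 5 fell and 1 rose with diabetes (median log2 fold change -0.43), and 5 rose and 1 fell with PMX-53 in diabetic mice (median 0.54). Of all genes tested, 40.3% passed in the first comparison (19.9% lower) and 27.3% in the second (13.9% higher). Col1a1, the α1 chain of type I collagen, had 18.8, 28.8 and 47.4 CPM (lowest, median and highest) in diabetic PMX-53 libraries, 9.39, 13.8 and 21.4 CPM in diabetic vehicle, 16.3, 23.9 and 28.4 CPM in non-diabetic PMX-53 and 18.3, 24.5 and 27.9 CPM in non-diabetic vehicle libraries. In 5 of 6 diabetic vehicle libraries it was below every non-diabetic vehicle library, and in 5 of 6 diabetic PMX-53 libraries above every diabetic vehicle library. On the log2 scale the difference with diabetes on vehicle was -0.77 ± 0.20 (SE, edgeR adjusted p = 0.00447). That with PMX-53 in diabetic mice was 1.11 ± 0.20 (edgeR adjusted p = 0.000334). On PMX-53 it was 0.39 ± 0.19 between diabetic and non-diabetic mice, which did not pass.

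Col1a2, the α2 chain that pairs with α1 in type I collagen, had 35.6, 49.3 and 63.2 CPM in diabetic PMX-53, 28.4, 33.8 and 41.0 CPM in diabetic vehicle, 33.5, 42.7 and 51.9 CPM in non-diabetic PMX-53 and 34.9, 45.7 and 52.4 CPM in non-diabetic vehicle libraries. The diabetic vehicle libraries overlapped those of each other group. It changed by -0.43 ± 0.13 and 0.54 ± 0.13 on the log2 scale in the first and second comparison (edgeR adjusted p = 0.0108 and 0.00357), and on PMX-53 the difference between diabetic and non-diabetic mice was 0.19 ± 0.13, which did not pass. The chains of type I collagen therefore did not move by the same factor. The ratio of Col1a1 to Col1a2, each per kb, averaged 0.551 ± 0.0680 in diabetic PMX-53, 0.372 ± 0.0583 in diabetic vehicle, 0.485 ± 0.0427 in non-diabetic PMX-53 and 0.476 ± 0.0433 in non-diabetic vehicle libraries (SD, n = 6). By a two-sided exact permutation test, adjusted over the 40 tests of 10 such ratios in 4 comparisons, it was higher in diabetic mice with PMX-53 (adjusted p = 0.0144) and lower with diabetes on vehicle (adjusted p = 0.0346). The second is above 0.05, at up to 0.0693, when single libraries are left out.

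Col3a1, which forms fibrils together with type I collagen in soft tissues, had 19.9, 31.3 and 54.1 CPM in diabetic PMX-53, 10.8, 15.9 and 23.5 CPM in diabetic vehicle, 16.4, 25.6 and 31.6 CPM in non-diabetic PMX-53 and 20.04, 26.5 and 32.7 CPM in non-diabetic vehicle libraries. As with Col1a1, the diabetic vehicle libraries were the low ones, with some overlap. It changed by -0.70 ± 0.22 with diabetes on vehicle and by 1.04 ± 0.22 with PMX-53 in diabetic mice (log2; edgeR adjusted p = 0.0163 and 0.00148). Diabetes on PMX-53 gave 0.44 ± 0.22 (edgeR adjusted p = 0.213). The per kb ratio of Col3a1 to Col1a1 averaged between 1.15 and 1.26 in the 4 groups and passed in none of the comparisons.

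Type V collagen nucleates these fibrils and sets their width. Col5a1, its α1 chain, had 12.7, 15.2 and 20.5 CPM in diabetic PMX-53, 7.70, 10.1 and 12.7 CPM in diabetic vehicle, 15.0, 16.2 and 19.7 CPM in non-diabetic PMX-53 and 12.0, 14.6 and 15.4 CPM in non-diabetic vehicle libraries. Every diabetic PMX-53 library was above every diabetic vehicle library. On vehicle it fell by 0.49 with diabetes (SE 0.12, edgeR adjusted p = 0.00151), and in diabetic mice it rose by 0.61 ± 0.12 with PMX-53 (log2, edgeR adjusted p = 0.000335), while diabetes on PMX-53 gave -0.10 ± 0.11, which did not pass. Col5a3, another chain of type V, rose by 0.71 ± 0.15 in the second comparison with no overlap of the groups, and was at -0.33 ± 0.16 in the first and 0.41 ± 0.15 with diabetes on PMX-53 (edgeR adjusted p = 0.0790), neither of which passed.

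Col5a2, the α2 chain of type V and the neighbour of Col3a1, followed another pattern. It had 9.54, 13.1 and 16.5 CPM in diabetic PMX-53, 7.42, 11.6 and 21.1 CPM in diabetic vehicle, 19.0, 20.3 and 27.6 CPM in non-diabetic PMX-53 and 16.2, 18.4 and 26.2 CPM in non-diabetic vehicle libraries. It was low in both diabetic groups, and the diabetic and non-diabetic PMX-53 libraries did not overlap. Its log2 difference with diabetes was -0.66 ± 0.19 on vehicle and -0.72 ± 0.19 on PMX-53 (edgeR adjusted p = 0.00678 and 0.0151). The comparison of PMX-53 with vehicle in diabetic mice gave 0.03 ± 0.19 (95% interval -0.34 to 0.41). With library totals as the only scaling, the difference on PMX-53 had an adjusted p of 0.0564. The per kb ratio of Col5a2 to Col5a1 averaged 1.08 ± 0.221 in diabetic PMX-53 and 1.64 ± 0.282 in non-diabetic PMX-53 libraries (exact permutation adjusted p = 0.0144). Col5a2 had been called lower in these same libraries, so the ratio is not separate evidence. On vehicle the ratio averaged 1.70 ± 0.938 in diabetic and 1.80 ± 0.440 in non-diabetic libraries, which did not pass (exact permutation adjusted p = 0.890).

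Col27a1 fell with PMX-53 in diabetic mice by 0.67 on the log2 scale (SE 0.15, edgeR adjusted p = 0.00176). It had 73.3, 81.9 and 112 CPM in diabetic PMX-53, 90.4, 144 and 176 CPM in diabetic vehicle, 82.0, 107 and 133 CPM in non-diabetic PMX-53 and 112, 141 and 163 CPM in non-diabetic vehicle libraries. Both vehicle groups had the higher medians, and the diabetic PMX-53 libraries lay just below all non-diabetic vehicle ones, while the other groups overlapped. In non-diabetic mice the log2 fold change with PMX-53 was -0.38 ± 0.15 and did not pass (edgeR adjusted p = 0.577), and neither did the interaction (-0.29 ± 0.21) or diabetes on PMX-53 (-0.31 ± 0.15, edgeR adjusted p = 0.205). Col11a2, a chain of cartilage fibrils, was scarce, with at most 1.72 CPM in any library, and rose by 0.85 ± 0.29 with diabetes on vehicle, against 0.20 ± 0.28 on PMX-53, which did not pass. The first call was lost when diabetic vehicle replicate 4 (0.71, adjusted p = 0.0593) or non-diabetic vehicle replicate 5 (0.71, adjusted p = 0.0589) was left out.

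**Figure D3:**
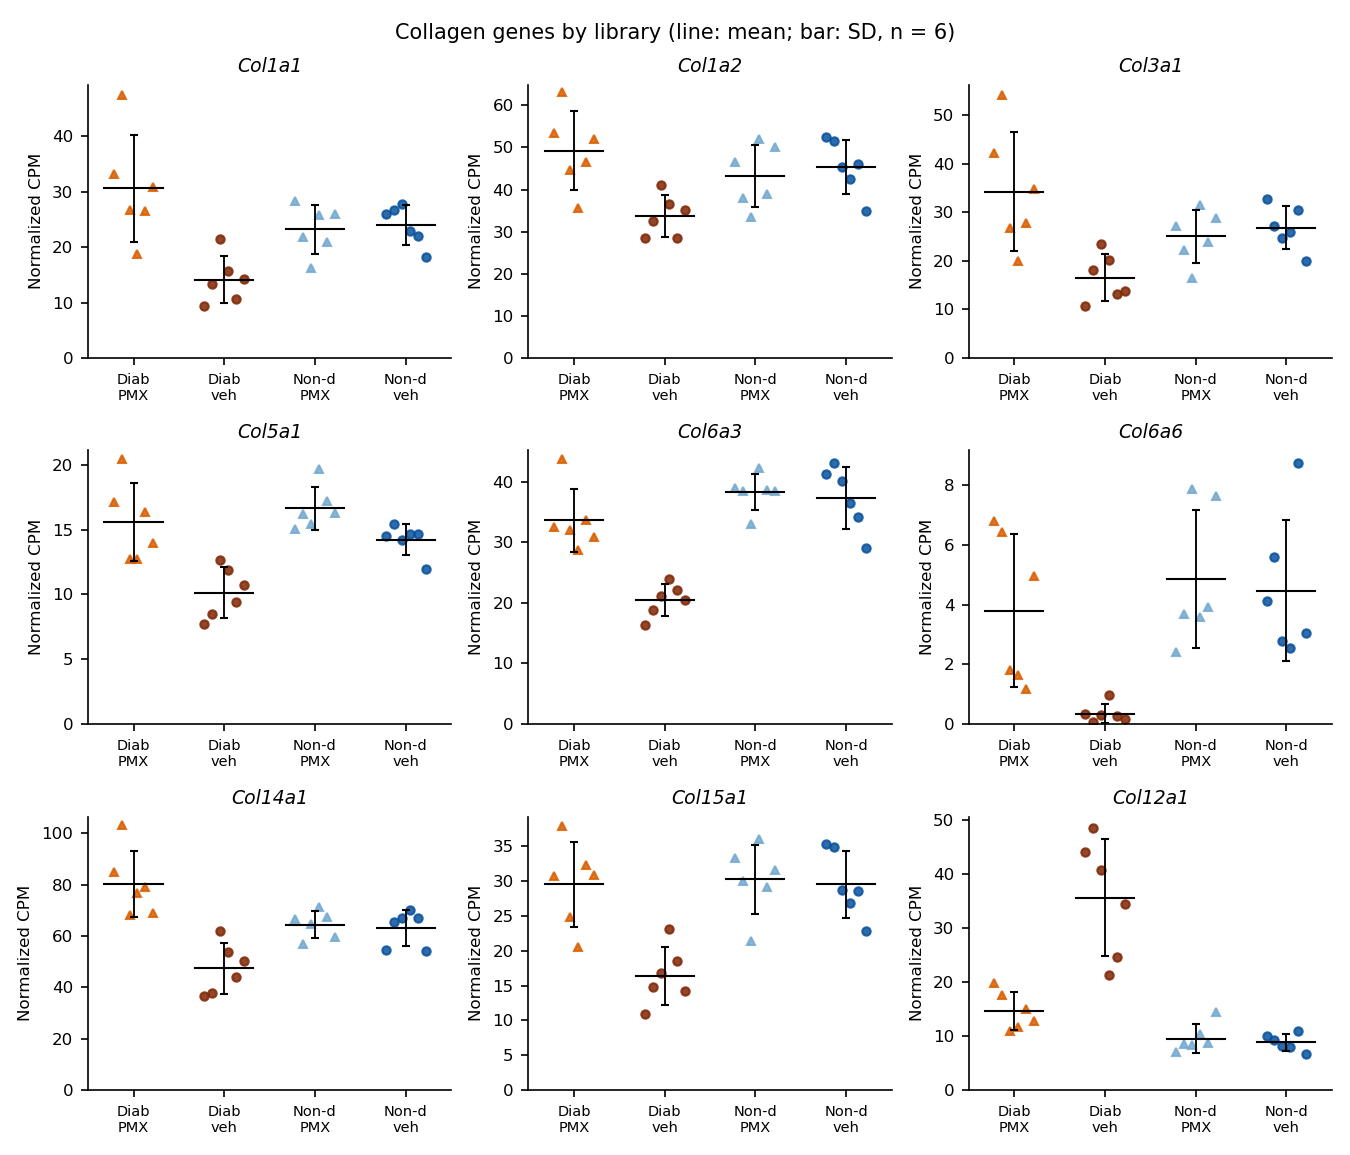
Normalized CPM of 9 collagen genes in each of the 24 libraries, with the group mean (line) and SD (bar, n = 6); triangles are PMX-53 and circles vehicle. Diabetic vehicle libraries are lowest for Col6a3 (16.4 to 24.0 CPM) and highest for Col12a1 (21.4 to 48.6 CPM).

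The type IV genes had small median changes. On vehicle, 1 of 6 rose and 1 fell with diabetes (median log2 fold change 0.13), and 1 of 6 rose with PMX-53 in diabetic mice (median 0.10). The shares of all genes that passed in these comparisons were 40.3% and 27.3%. Col4a1 had 235, 246 and 318 CPM in diabetic PMX-53, 224, 234 and 304 CPM in diabetic vehicle, 203, 253 and 295 CPM in non-diabetic PMX-53 and 200, 222 and 276 CPM in non-diabetic vehicle libraries. The 4 groups overlapped, and its log2 fold changes were 0.05 ± 0.10 with diabetes on vehicle (95% interval -0.15 to 0.26) and 0.11 ± 0.10 with PMX-53 in diabetic mice (-0.09 to 0.32). Col4a2 had 190, 200 and 226 CPM in diabetic PMX-53, 171, 188 and 244 CPM in diabetic vehicle, 149, 176 and 199 CPM in non-diabetic PMX-53 and 145, 159 and 187 CPM in non-diabetic vehicle libraries. Its medians were higher in the diabetic groups, and the diabetic PMX-53 libraries lay above all non-diabetic vehicle ones, while the other groups overlapped. It rose by 0.24 ± 0.08 with diabetes on vehicle (edgeR adjusted p = 0.0258). Diabetes on PMX-53 gave 0.22 ± 0.08, which did not pass (edgeR adjusted p = 0.0918). The call on vehicle was lost without diabetic vehicle replicate 3 (0.17, adjusted p = 0.0826), which held the highest value, and without non-diabetic vehicle replicate 5 or 6 (adjusted p = 0.0593 and 0.0658).

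The ratio of these paired genes was more regular than either level. Col4a1 over Col4a2, per kb, averaged 1.25 ± 0.0749 in diabetic PMX-53, 1.23 ± 0.0525 in diabetic vehicle, 1.40 ± 0.0638 in non-diabetic PMX-53 and 1.40 ± 0.0591 in non-diabetic vehicle libraries (SD, n = 6). It was lower with diabetes on vehicle (exact permutation adjusted p = 0.0144, at most 0.0289 with a library left out) and lower with diabetes on PMX-53 (adjusted p = 0.0346, up to 0.0693 with a library left out), a comparison that shares no library with the first. The triple helix of this network holds both chains in a fixed proportion, and RNA ratios were the only quantity measured here.

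Col4a3 and Col4a4, of the podocyte network, had similar levels. Col4a3 had 255, 271 and 303 CPM in diabetic PMX-53, 212, 262 and 280 CPM in diabetic vehicle, 268, 310 and 336 CPM in non-diabetic PMX-53 and 252, 276 and 315 CPM in non-diabetic vehicle libraries. Its groups overlapped and it passed in no comparison, with -0.16 ± 0.07 for diabetes on vehicle, although with library totals as the only scaling it was at -0.26 there (adjusted p = 0.0130) and, for PMX-53 in the diabetic groups, at 0.25 (adjusted p = 0.0180). Without non-diabetic vehicle replicate 5 it passed with diabetes on vehicle (-0.19, edgeR adjusted p = 0.0498). Col4a4 had 277, 313 and 353 CPM in diabetic PMX-53, 229, 253 and 292 CPM in diabetic vehicle, 311, 336 and 361 CPM in non-diabetic PMX-53 and 260, 312 and 323 CPM in non-diabetic vehicle libraries. In 5 of 6 diabetic PMX-53 libraries, and in all 6 non-diabetic PMX-53 ones, it was above every diabetic vehicle library. On vehicle it fell by 0.24 with diabetes (SE 0.07, edgeR adjusted p = 0.00728), and in diabetic mice it rose by 0.28 ± 0.07 with PMX-53 (log2, edgeR adjusted p = 0.00357), while diabetes on PMX-53 gave -0.09 ± 0.07, which did not pass. An antisense transcript, C430014B12Rik, covers 5.65% of the exons of Col4a3, and no source used here says whether the counting used strand.

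All genes tested passed in 40.3% with diabetes on vehicle, 27.3% with PMX-53 in diabetic mice and 10% with diabetes on PMX-53. The 9 podocyte markers were set beside these shares. Of the 9, none passed with diabetes on vehicle and 7 rose with PMX-53 in diabetic mice and 4 with diabetes on PMX-53 (median 0.18), and their summed level was 415 to 526 CPM in diabetic PMX-53, 317 to 354 CPM in diabetic vehicle, 361 to 436 CPM in non-diabetic PMX-53 and 322 to 365 CPM in non-diabetic vehicle libraries. Their part in the change of Col4a4 was not tested. In bulk tissue, fewer cells of a type and less RNA per cell cannot be told apart, here and for every result that follows.

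Col4a5, the third chain of the podocyte network, had 41.2, 47.4 and 53.1 CPM in diabetic PMX-53, 38.3, 44.5 and 50.4 CPM in diabetic vehicle, 38.8, 41.5 and 56.3 CPM in non-diabetic PMX-53 and 33.4, 38.1 and 42.9 CPM in non-diabetic vehicle libraries. All groups overlapped, and with diabetes on vehicle it was at 0.20 ± 0.09 (edgeR adjusted p = 0.0688). There it passed by edgeR in a fit of the compared groups alone (adjusted p = 0.0477). It also passed without diabetic vehicle replicate 3 (0.0271), non-diabetic PMX-53 replicate 6 (0.0319), or non-diabetic vehicle replicate 3 (0.0465) or 6 (0.0498). Col4a6, which pairs with Col4a5 in Bowman's capsule and some tubular membranes, was scarce, with 1.32, 1.76 and 2.35 CPM in diabetic PMX-53, 1.21, 2.13 and 3.50 CPM in diabetic vehicle, 1.33, 1.61 and 6.19 CPM in non-diabetic PMX-53 and 1.03, 1.35 and 2.02 CPM in non-diabetic vehicle libraries. It passed in no comparison, and 1 non-diabetic PMX-53 library, replicate 6, held the highest value. Without that library Col4a6 passed with diabetes on vehicle (0.62, edgeR adjusted p = 0.0346). The per kb ratio of Col4a3 to Col4a5 was 4.33 ± 0.516 in diabetic vehicle and 5.58 ± 0.932 in non-diabetic vehicle libraries (exact permutation adjusted p = 0.0325, up to 0.0673 with a library left out). In diabetic and non-diabetic PMX-53 libraries it was 4.46 ± 0.520 and 5.47 ± 0.901, which did not pass (exact permutation adjusted p = 0.123).

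**Figure D4:**
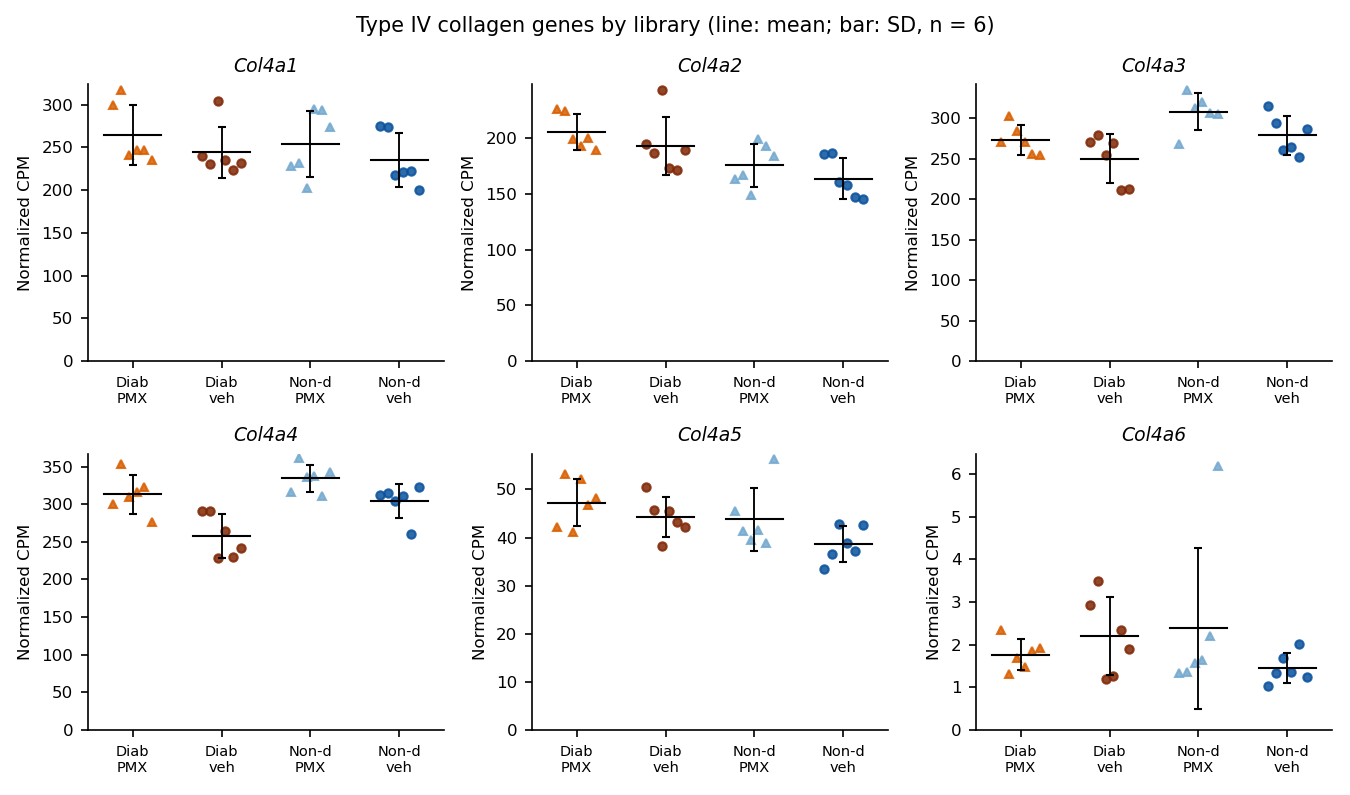
Normalized CPM of the 6 type IV collagen genes in each library, with the group mean (line) and SD (bar, n = 6); triangles are PMX-53 and circles vehicle. Groups overlap for every gene except diabetic PMX-53 with non-diabetic vehicle libraries at Col4a2 and diabetic vehicle with non-diabetic PMX-53 libraries at Col4a4; Col4a4 is lowest in diabetic vehicle libraries (229 to 292 CPM).

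All 6 type VI genes passed the filter. With diabetes on vehicle 3 fell and none rose (median log2 fold change -0.80), and with PMX-53 in diabetic mice all 6 rose (median 1.05). Among all genes tested, 40.3% passed in the first comparison (19.9% lower) and 27.3% in the second (13.9% higher). Col6a3, the long chain that completes each type VI monomer and whose end is cleaved to endotrophin, had 28.8, 32.3 and 43.8 CPM in diabetic PMX-53, 16.4, 20.8 and 24.0 CPM in diabetic vehicle, 33.1, 38.6 and 42.4 CPM in non-diabetic PMX-53 and 29.1, 38.3 and 43.1 CPM in non-diabetic vehicle libraries. The diabetic vehicle libraries were below every library of the other groups. On vehicle it fell by 0.87 with diabetes (SE 0.10, edgeR adjusted p = 2.22e-07), and in diabetic mice it rose by 0.71 ± 0.10 with PMX-53 (log2, edgeR adjusted p = 1.37e-05), with an interaction of 0.68 ± 0.14. Diabetes on PMX-53 gave -0.19 ± 0.10, which did not pass (edgeR adjusted p = 0.224).

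Col6a1 and Col6a2, whose chains join Col6a3 in the classic monomer, differed from it. Col6a1 had 11.1, 16.3 and 22.8 CPM in diabetic PMX-53, 9.59, 11.2 and 14.9 CPM in diabetic vehicle, 13.1, 13.5 and 15.3 CPM in non-diabetic PMX-53 and 9.15, 12.8 and 15.5 CPM in non-diabetic vehicle libraries. Col6a2 had 7.47, 10.9 and 16.2 CPM in diabetic PMX-53, 7.11, 7.86 and 10.1 CPM in diabetic vehicle, 7.82, 10.1 and 12.0 CPM in non-diabetic PMX-53 and 5.37, 9.55 and 10.5 CPM in non-diabetic vehicle libraries. For Col6a1 the highest libraries were diabetic PMX-53 ones. For Col6a2 only diabetic PMX-53 replicate 2, at 16.2 CPM, lay above the non-diabetic PMX-53 top of 12.0 CPM. All groups overlapped for both genes. With PMX-53 in diabetic mice they rose by 0.48 ± 0.13 and 0.46 ± 0.15 (log2; edgeR adjusted p = 0.00609 and 0.0285). With diabetes on vehicle they were at -0.14 ± 0.13 and -0.10 ± 0.16, and with diabetes on PMX-53 at 0.23 ± 0.13 and 0.14 ± 0.15, none of which passed. The call of Col6a2 was lost by voom (0.41, adjusted p = 0.0599), with no filter (0.46, adjusted p = 0.0689), and without diabetic PMX-53 replicate 2 (0.33, adjusted p = 0.0932) or diabetic vehicle replicate 2 or 5 (adjusted p = 0.0683 and 0.0590).

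Per kb, Col6a3 over Col6a1 averaged 0.956 ± 0.123 in diabetic PMX-53, 0.817 ± 0.129 in diabetic vehicle, 1.26 ± 0.107 in non-diabetic PMX-53 and 1.34 ± 0.0732 in non-diabetic vehicle libraries (SD, n = 6). The ratio was lower with diabetes on vehicle (exact permutation adjusted p = 0.0144) and on PMX-53 (adjusted p = 0.0325), and stayed below 0.05 in both with any library left out. Col6a3 had been called lower on vehicle in these same libraries, so the ratio there is not separate evidence. Neither gene was called with diabetes on PMX-53. Between PMX-53 and vehicle in diabetic mice the difference was 0.139 (adjusted p = 0.216). The ratio of Col6a1 to Col6a2 averaged 1.35 to 1.45 in the 4 groups and passed in no comparison.

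Col6a4, Col6a5 and Col6a6 encode alternative chains that can stand in for Col6a3. Col6a6 had 1.17, 3.37 and 6.81 CPM in diabetic PMX-53, 0.0538, 0.292 and 0.957 CPM in diabetic vehicle, 2.41, 3.81 and 7.87 CPM in non-diabetic PMX-53 and 2.54, 3.58 and 8.74 CPM in non-diabetic vehicle libraries. The diabetic vehicle libraries held 1 to 15 counts and lay below all others. The log2 difference with diabetes on vehicle was -3.72 ± 0.61 (edgeR adjusted p = 5.81e-05). That with PMX-53 in diabetic mice was 3.46 ± 0.63 (edgeR adjusted p = 0.000358), and both sizes rest on those few counts. Diabetes on PMX-53 gave -0.39 ± 0.43, which did not pass.

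Col6a5 had 0.580, 0.720 and 1.30 CPM in diabetic PMX-53, 0.128, 0.193 and 0.321 CPM in diabetic vehicle, 0.347, 0.594 and 1.05 CPM in non-diabetic PMX-53 and 0.147, 0.377 and 0.547 CPM in non-diabetic vehicle libraries. Diabetic PMX-53 libraries all lay above diabetic vehicle ones, and the gene rose by 1.94 ± 0.33 there (edgeR adjusted p = 9.15e-05), while diabetes gave -0.73 ± 0.39 on vehicle (edgeR adjusted p = 0.138) and 0.36 ± 0.27 on PMX-53. In diabetic vehicle libraries it held 2 to 6 counts. Col6a4 had 0.372, 0.731 and 0.921 CPM in diabetic PMX-53, 0.0444, 0.199 and 0.766 CPM in diabetic vehicle, 0.129, 0.727 and 0.921 CPM in non-diabetic PMX-53 and 0.456, 0.804 and 1.16 CPM in non-diabetic vehicle libraries. Only diabetic vehicle replicate 4 overlapped the non-diabetic vehicle libraries. Its log2 fold changes were -1.59 ± 0.42 with diabetes on vehicle and 1.39 ± 0.43 with PMX-53 in diabetic mice (edgeR adjusted p = 0.00372 and 0.0176), or -2.20 and 2.00 without diabetic vehicle replicate 4, and 0.09 ± 0.37 with diabetes on PMX-53, which did not pass.

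Of the other collagens, 12 of 21 were tested. With diabetes on vehicle 3 rose and 4 fell (median log2 fold change 0.09), and with PMX-53 in diabetic mice 4 rose and 3 fell (median -0.12). The matching shares of all genes called were 40.3% and 27.3%. The collagens that sit on fibrils moved in both directions. Col12a1, which links fibrils to the surrounding matrix in tissue under load, had 10.9, 13.8 and 19.8 CPM in diabetic PMX-53, 21.4, 37.6 and 48.6 CPM in diabetic vehicle, 6.997, 8.59 and 14.4 CPM in non-diabetic PMX-53 and 6.61, 8.70 and 10.97 CPM in non-diabetic vehicle libraries. Every diabetic vehicle library was above every library of the other groups. On vehicle it rose by 2.01 ± 0.21 with diabetes (log2, edgeR adjusted p = 1.96e-07), and in diabetic mice it fell by 1.29 with PMX-53 (SE 0.20, edgeR adjusted p = 7.03e-05). On PMX-53 the difference between diabetic and non-diabetic mice was 0.61 ± 0.21 (edgeR adjusted p = 0.0775), with 6 of 6 diabetic libraries above the non-diabetic mean.

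Col14a1, a relative of Col12a1 that limits fibril fusion, had 68.2, 77.9 and 103 CPM in diabetic PMX-53, 36.5, 47.2 and 61.8 CPM in diabetic vehicle, 56.8, 65.6 and 71.4 CPM in non-diabetic PMX-53 and 54.0, 66.2 and 70.1 CPM in non-diabetic vehicle libraries. Diabetic PMX-53 libraries did not overlap diabetic vehicle ones. On vehicle it fell by 0.41 with diabetes (SE 0.12, edgeR adjusted p = 0.00634), and in diabetic mice it rose by 0.76 ± 0.12 with PMX-53 (edgeR adjusted p = 4.38e-05). The difference on PMX-53 between diabetic and non-diabetic mice was 0.32 ± 0.11 (edgeR adjusted p = 0.0821). The ratio of Col12a1 to Col14a1, per kb, averaged 0.0895 ± 0.0141 in diabetic PMX-53, 0.394 ± 0.179 in diabetic vehicle, 0.0739 ± 0.0238 in non-diabetic PMX-53 and 0.0698 ± 0.0137 in non-diabetic vehicle libraries, with no overlap of diabetic vehicle with the others (exact permutation adjusted p = 0.0144 against each of diabetic PMX-53 and non-diabetic vehicle). Both genes had been called in opposite directions in these same libraries, so the ratio gives no evidence beyond those calls.

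Col16a1, a further fibril-associated collagen, had 9.35, 10.2 and 12.4 CPM in diabetic PMX-53, 7.33, 8.05 and 10.7 CPM in diabetic vehicle, 10.1, 11.9 and 12.7 CPM in non-diabetic PMX-53 and 10.9, 12.9 and 13.4 CPM in non-diabetic vehicle libraries. All 6 diabetic vehicle libraries lay below the non-diabetic vehicle ones. Diabetes on vehicle gave -0.58 (SE 0.09, edgeR adjusted p = 8e-06), and in diabetic mice it rose by 0.31 ± 0.09 with PMX-53 (edgeR adjusted p = 0.0109), while diabetes on PMX-53 gave -0.16 ± 0.09, which did not pass.

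Col19a1, a fibril-associated collagen best known from muscle and brain, had 0.559, 1.55 and 3.14 CPM in diabetic PMX-53, 0.0635, 0.146 and 1.08 CPM in diabetic vehicle, 2.26, 5.40 and 7.66 CPM in non-diabetic PMX-53 and 2.67, 5.74 and 8.93 CPM in non-diabetic vehicle libraries. Both diabetic groups were low, the vehicle one more so, with 1 to 17 counts a library. Beside the contrasts on vehicle, it fell with diabetes on PMX-53 by 1.66 on the log2 scale (SE 0.36, edgeR adjusted p = 0.00496). Without diabetic vehicle replicate 4 the changes were -5.25 for diabetes on vehicle, against -4.29 with it, 3.45 for PMX-53 in diabetic mice, against 2.50, and 3.59 for the interaction, against 2.64.

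A list of 9 genes of another kind moved in the same comparisons. These genes are higher in the kidneys of male than of female mice. All 9 fell with diabetes on vehicle (median log2 fold change -2.64) and all 9 rose with PMX-53 in diabetic mice (median 1.57), and 2 of 9 fell with diabetes on PMX-53. Among all genes tested the matching shares were 19.9% lower, 13.9% higher and 4.52% lower. The summed level of the list was 6493.35 to 9243.78 CPM (median 8102.89) in diabetic PMX-53 libraries. In diabetic vehicle libraries it was 1240 to 8098.11 CPM (median 1447.32), so the top value lay far above that median. It was 13098.7 to 16316.3 CPM in non-diabetic PMX-53 and 13692.1 to 16739.5 CPM in non-diabetic vehicle libraries. The part of these 9 genes in the changes of Col19a1, Col6a6 and Col6a4 was not tested.

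Of the multiplexins, Col15a1, which ties basement membranes to the interstitium, had 20.5, 30.8 and 38.0 CPM in diabetic PMX-53, 10.9, 15.8 and 23.1 CPM in diabetic vehicle, 21.5, 30.8 and 36.0 CPM in non-diabetic PMX-53 and 22.9, 28.7 and 35.4 CPM in non-diabetic vehicle libraries. Low values were those of diabetic vehicle libraries, with overlap at their top. Its log2 difference was -0.86 ± 0.16 with diabetes on vehicle and 0.85 ± 0.16 with PMX-53 in diabetic mice (edgeR adjusted p = 0.000246 and 0.000566). Diabetes on PMX-53 gave -0.04 ± 0.16, which did not pass. Col18a1 had 117, 138 and 167 CPM in diabetic PMX-53, 129, 131 and 146 CPM in diabetic vehicle, 102, 129 and 144 CPM in non-diabetic PMX-53 and 83.9, 114 and 135 CPM in non-diabetic vehicle libraries. Its groups overlapped, and diabetes on vehicle gave 0.24 ± 0.10 (edgeR adjusted p = 0.0521).

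Col7a1, the collagen of anchoring fibrils in skin, had 3.00, 3.31 and 4.62 CPM in diabetic PMX-53, 4.23, 4.78 and 6.57 CPM in diabetic vehicle, 1.56, 3.10 and 3.87 CPM in non-diabetic PMX-53 and 2.28, 2.89 and 3.63 CPM in non-diabetic vehicle libraries. All 6 diabetic vehicle libraries lay above the non-diabetic ones. On vehicle it rose by 0.75 ± 0.17 with diabetes (edgeR adjusted p = 0.000967), and in diabetic mice it fell by 0.49 with PMX-53 (SE 0.17, edgeR adjusted p = 0.0304), while diabetes on PMX-53 gave 0.25 ± 0.18, which did not pass. The second call was lost with library totals as the only scaling (-0.38, adjusted p = 0.123) and when any of 7 libraries was left out, diabetic PMX-53 replicates 1, 3, 4 and 5 and diabetic vehicle replicates 1, 4 and 6, down to -0.40 (adjusted p = 0.0738). Col13a1, a transmembrane collagen, rose by 0.96 ± 0.28 with diabetes on vehicle and fell by 0.90 with PMX-53 in diabetic mice (SE 0.28, edgeR adjusted p = 0.0072 and 0.016), and diabetes on PMX-53 gave 0.04 ± 0.30, which did not pass. It had at most 2.91 CPM in any library, and the second call was lost without diabetic vehicle replicate 2 (-0.76, adjusted p = 0.0539) and in a fit of the compared groups alone (adjusted p = 0.0707). Col8a1, Col20a1, Col23a1 and Col26a1 passed in no comparison.

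The responses to PMX-53 in diabetic mice, less those in non-diabetic mice, had these sizes for genes not yet given one. The interaction was 1.15 ± 0.28 for Col1a1, 0.62 ± 0.18 for Col1a2, 1.14 ± 0.31 for Col3a1 and 0.74 ± 0.22 for Col5a3. It was 3.33 ± 0.78 for Col6a6, 0.73 ± 0.16 for Col14a1, 0.81 ± 0.23 for Col15a1, 0.42 ± 0.12 for Col16a1 and -1.40 ± 0.30 for Col12a1, all in log2 by edgeR. Calls were lost for Col1a2 without any of 12 libraries in turn (adjusted p up to 0.0656), for Col16a1 without any of 7 (up to 0.0601), for Col5a3 without any of 4 (up to 0.0551) and for Col15a1 without 1, diabetic vehicle replicate 2 (0.0526). With replicate number as a block, Col1a2, Col3a1 and Col5a3 were lost, with adjusted p of 0.0690, 0.0550 and 0.0510. Of 33 genes, 19 had their highest value within the diabetic PMX-53 group in replicate 2, which was also the shallowest library of the study. Without it the interaction was called for 8 collagen genes.

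Markers of cells that make interstitial collagen were set beside these changes. Among all genes tested, 40.3% passed with diabetes on vehicle, 27.3% with PMX-53 in diabetic mice and 10% with diabetes on PMX-53. Of 7 fibroblast markers tested, with diabetes on vehicle 1 rose and 3 fell, 4 rose with PMX-53 in diabetic mice and 2 rose with diabetes on PMX-53. The median log2 fold changes of this list were -0.26, 0.35 and 0.21 in these 3 comparisons. The fibroblast list summed to 139 to 189 CPM in diabetic PMX-53, 125 to 140 CPM in diabetic vehicle, 123 to 172 CPM in non-diabetic PMX-53 and 109 to 173 CPM in non-diabetic vehicle libraries. Of 7 mesangial and pericyte markers, with diabetes on vehicle 3 rose and 2 fell (median -0.03), and 2 rose with PMX-53 in diabetic mice (median 0.25). That list summed to 150 to 209 CPM in diabetic PMX-53, 134 to 162 CPM in diabetic vehicle, 141 to 173 CPM in non-diabetic PMX-53 and 119 to 179 CPM in non-diabetic vehicle libraries. Of 8 endothelial markers, with diabetes on vehicle 1 rose and 3 fell and 3 rose with PMX-53 in diabetic mice, and their sum was 366 to 442 CPM in diabetic PMX-53, 336 to 380 CPM in diabetic vehicle, 398 to 422 CPM in non-diabetic PMX-53 and 359 to 435 CPM in non-diabetic vehicle libraries. Of 6 myofibroblast markers none passed in either comparison. Of 5 smooth muscle markers 1 passed, which rose with PMX-53 in diabetic mice, and of 7 macrophage markers with diabetes on vehicle 1 rose and 1 fell. The myofibroblast list summed to 107 to 150 CPM in diabetic PMX-53, 94.4 to 170 CPM in diabetic vehicle, 93.3 to 152 CPM in non-diabetic PMX-53 and 94.99 to 144 CPM in non-diabetic vehicle libraries. No marker of these lists was at 0 in every library of a group. With diabetes on PMX-53, 2 mesangial and pericyte, 1 smooth muscle and 1 myofibroblast marker rose, 2 endothelial markers fell and no macrophage marker passed. Their part in the collagen changes was not tested.

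Lists of epithelial and neighbouring tissue were set beside the same shares of all genes called. These were 40.3% with diabetes on vehicle, 27.3% with PMX-53 in diabetic mice and 10% with diabetes on PMX-53. Of 8 proximal tubule markers, with diabetes on vehicle 2 rose and 5 fell and 3 rose with PMX-53 in diabetic mice. Of 8 collecting duct markers, 7 rose with diabetes on vehicle, and 1 rose and 2 fell with PMX-53 in diabetic mice, and their sum was 248.9 to 338 CPM in diabetic PMX-53, 260 to 423 CPM in diabetic vehicle, 202 to 314 CPM in non-diabetic PMX-53 and 149 to 204 CPM in non-diabetic vehicle libraries. Of 6 markers of medulla and papilla, with diabetes on vehicle 2 rose and 1 fell, and 1 rose and 3 fell with PMX-53 in diabetic mice. Of 6 urothelial markers 1 could be tested, and it rose with diabetes on vehicle. Of 7 markers of fat around the capsule 2 could be tested, of which 1 rose with diabetes on vehicle and both fell with PMX-53 in diabetic mice, and 1 to 3 of the 7 were at 0 throughout a group. With diabetes on PMX-53, 2 proximal tubule markers fell, 2 collecting duct markers rose, and none of the tested markers of medulla and papilla, urothelium or fat passed. Their part in the rises of Col4a2, Col7a1, Col12a1 and Col13a1 was not tested.

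For this and the next pathway lists, 40.3% of all genes passed with diabetes on vehicle. The shares were 27.3% with PMX-53 in diabetic mice and 10% with diabetes on PMX-53. Genes that fold and modify collagen chains were set beside the chains. Of 19 tested, with diabetes on vehicle 4 rose and 8 fell (median log2 fold change -0.16), and 1 rose and 3 fell with PMX-53 in diabetic mice (median 0.03), and 1 rose and 2 fell with diabetes on PMX-53. Plod2, a lysyl hydroxylase whose product fixes the type of cross-link, changed by -0.51 ± 0.08 with diabetes on vehicle (edgeR adjusted p = 1.26e-05), was at 0.13 ± 0.08 in diabetic mice with PMX-53, and changed by -0.37 ± 0.08 with diabetes on PMX-53 (edgeR adjusted p = 0.00329). P4hb, the β subunit of prolyl 4-hydroxylase, fell by 0.26 with diabetes on vehicle (SE 0.05) and was at 0.07 ± 0.05 with PMX-53 in diabetic mice. Fkbp14, a prolyl isomerase of the endoplasmic reticulum, rose by 0.54 ± 0.09 and fell by 0.35 (SE 0.09) in these comparisons. Colgalt1, which adds galactose to hydroxylysine, rose by 0.33 ± 0.06 with diabetes on vehicle and by 0.28 ± 0.06 with diabetes on PMX-53. Serpinh1, the collagen chaperone HSP47, lies outside the rule for named genes and was chosen after its values were seen. On vehicle it fell by 0.91 with diabetes (SE 0.19, edgeR adjusted p = 0.000595), and in diabetic mice it was at 0.45 ± 0.19 with PMX-53 (edgeR adjusted p = 0.0857).

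Among 13 tested genes for the trimming and cross-linking of secreted chains, with diabetes on vehicle 4 rose and 2 fell (median 0.20), and 4 rose and 1 fell with PMX-53 in diabetic mice (median 0.12), and 1 rose with diabetes on PMX-53. Bmp1, the protease that removes the C-terminal propeptide of fibrillar collagens, rose by 0.61 ± 0.11 with diabetes on vehicle and by 0.38 ± 0.12 with diabetes on PMX-53, and fell by 0.43 with PMX-53 in diabetic mice (SE 0.11). Pcolce, its enhancer, rose by 0.35 ± 0.08, and the lysyl oxidase genes Lox and Loxl4, whose enzymes start cross-links, rose by 0.99 ± 0.27 and 0.64 ± 0.21 with diabetes on vehicle. With PMX-53 in diabetic mice, Adamts2, which removes N-terminal propeptides, rose by 0.51 ± 0.17, and Pxdn, the peroxidasin that cross-links type IV collagen, rose by 0.37 ± 0.12, and it fell by 0.30 with diabetes on vehicle (SE 0.12).

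Of 9 tested genes for collagen cleavage and uptake, with diabetes on vehicle 1 rose and 2 fell (median 0.00), and 3 rose with PMX-53 in diabetic mice (median 0.18), and 1 rose with diabetes on PMX-53. Mmp13, the main interstitial collagenase of mice, fell by 2.99 (SE 0.37, edgeR adjusted p = 5.8e-07) and rose by 2.39 ± 0.40 (edgeR adjusted p = 7.57e-05). Mmp2, a gelatinase that also cuts type IV collagen, rose by 1.07 ± 0.16 with diabetes on vehicle and by 0.54 ± 0.16 with diabetes on PMX-53. Mrc2, an endocytic receptor for collagen fragments, was at -0.39 ± 0.13 and 0.50 ± 0.13 in the first 2 comparisons, and Mmp15, a membrane-bound metalloproteinase, rose by 0.95 ± 0.19 with PMX-53 in diabetic mice. Of 10 collagen receptor genes, 2 rose and 2 fell in each of these comparisons (medians 0.07 and 0.06), and 1 rose and 1 fell with diabetes on PMX-53. Itgav, an integrin subunit, rose by 0.54 ± 0.08 and fell by 0.45 (SE 0.08). Itga11, the integrin subunit of fibroblasts for fibrillar collagen, rose by 0.59 ± 0.20, by 0.68 ± 0.17 and, with diabetes on PMX-53, by 1.05 ± 0.18. The collagen-binding kinases Ddr1 and Ddr2 fell by 0.20 (SE 0.07) and 0.41 (SE 0.14) with diabetes on vehicle.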

How the data were processed

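Per the labels' protocols, directional libraries were built from 200 ng renal cortex total RNA after removal of ribosomal RNA. The authors deposited 1 table of whole-number read counts per gene, not normalized. Reads were demultiplexed with bcl2fastq 2.20.0.422 and aligned with STAR to GRCm38, per the submitters' processing notes. What annotation, counter and strand option the authors used is not given in the sources used here. Genes were matched to GENCODE annotation of GRCm38 for position and length (principal transcript by APPRIS, all exons as an alternative added after seeing the data).

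From these counts, edgeR 4.0.16 in R 4.3.3 fitted 1 quasi-likelihood model to all 24 libraries (TMM scaling, filterByExpr with a minimum count of 10, 15808 of 48526 genes kept), with p-values adjusted by Benjamini-Hochberg over all genes and a threshold of 0.05. CPM use TMM library sizes, and RPKM divide them by length. Ratios of genes were compared by exact permutation tests, whose smallest p is 0.00216. Among 60 pairs of libraries within groups none were identical, and none agreed within sampling noise (chi-square per degree of freedom at least 5.65). The labels do not say what replicate numbers mark, so replicate number was no block. Deviations of same-numbered libraries correlated weakly, between -0.115 and 0.131. Alternatives were DESeq2 1.42.0 and its size factors, limma voom 3.58.1, no scaling, other filters, a 2-fold threshold, a replicate block, other sets of groups and libraries left out.

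Members, lists and tests were chosen with earlier results of these data known. Every collagen gene could be named where it passed. Full values are given for type IV and type VI genes, for the 4 most abundant fibrillar and other genes, and for up to 8 genes with the smallest p in each of the first 2 comparisons. Of each pathway list up to 4 genes with the smallest p in a comparison are named, and Nnt and Ide are given as context. Col5a2, Col5a3, Col11a2 and Col13a1 were given values outside that list because they passed. The test was also run on simulated counts in which few genes changed. That check does not cover a comparison such as diabetes on vehicle, where 40.3% of all genes passed.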

Additional observations from a re-analysis of the deposited data

Results flagged for a closer look

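Single libraries lay far from the others of their group, by the gap to the nearest library over the range of the group (above Dixon's 95% critical value for 6 libraries), in 11 of 96 groups of values examined. For independent and normally distributed values chance gives about 1 in 20 groups. The genes share libraries, so the groups are not independent and the 11 cannot be judged against that rate. Diabetic vehicle replicate 4 was high for the scarce genes Col19a1 (1.08 CPM, others at most 0.222), Col6a4 (0.766, others at most 0.269) and Col6a6 (0.957, others at most 0.326). Diabetic vehicle replicate 3 was high for Col4a1 (304 CPM, others at most 239.7) and Col4a2 (244 CPM, others at most 195), and replicate 6 for Col6a2 (10.1 CPM, others at most 7.96). In diabetic PMX-53 replicate 2 was high for Col6a3 (43.8 CPM, others at most 33.8). In non-diabetic PMX-53 replicate 6 was high for Col4a6 (6.19 CPM, others at most 2.19). In non-diabetic vehicle replicate 5 was low for Col16a1 (10.9 CPM, others at least 12.9) and Col4a4 (260.0 CPM, others at least 304), and replicate 6 for Col5a1 (12.0 CPM, others at least 14.2).

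The response to PMX-53 differed between diabetic and non-diabetic mice by the edgeR interaction term for 11 genes: Col6a6 (3.33 on the log2 scale), Col19a1 (2.64), Col1a1 (1.15), Col3a1 (1.14), Col15a1 (0.81), Col5a3 (0.74), Col14a1 (0.73), Col6a3 (0.68), Col1a2 (0.62), Col16a1 (0.42) and Col12a1 (-1.40).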

How the results depend on the processing

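Counts of collagen genes called kept within 1.5 times of the reported ones under all settings but these. A 2-fold threshold left 4 for diabetes on vehicle, 7 for PMX-53 in diabetic mice, 1 for diabetes on PMX-53 and 5 for the interaction. For diabetes on PMX-53, against 2 calls, there was 1 with library totals alone, 8 by limma voom and 4 in a fit of the compared groups alone. Leaving out 1 library at a time gave 17 to 20 for diabetes on vehicle, 18 to 21 for PMX-53 in diabetic mice, 2 to 4 for diabetes on PMX-53 (4 without non-diabetic PMX-53 replicate 6), 8 to 13 for the interaction and 0 to 0 for PMX-53 in non-diabetic mice. With library totals alone, 79.3% of the genes called for the interaction were higher, against 49.5% with TMM scaling. Col4a1, at 0.05 with diabetes on vehicle, was at -0.038 with library totals alone, and between -0.010 (without diabetic vehicle replicate 3) and 0.112 with 1 library left out. With the replicate block the counts were 18, 20, 0, 2 and, for the interaction, 8. Deviations of same-numbered libraries correlated between -0.0776 and 0.0371 for diabetes on vehicle and between -0.0456 and 0.105 for PMX-53 in diabetic mice. The range was -0.091 to 0.0975 for PMX-53 in non-diabetic mice and -0.115 to 0.131 for diabetes on PMX-53. Weak correlations cannot exclude a shared batch or litter, and the labels do not say what the numbers mark. With no filter, the interaction calls of Col15a1, Col16a1, Col1a2 and Col3a1 were lost (adjusted p 0.0676, 0.0575, 0.0954 and 0.0528). The cause of these changes was not tested. Depth limits the scarce genes most: Col6a4, Col6a5, Col6a6 and Col19a1 had as few as 1 or 2 counts in a library.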
